A study of Mus musculus with 2 samples.

Results

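The genes described here are 10 known targets of ATF4, the transcription factor at the output of the integrated stress response. They are Asns, the serine synthesis genes Phgdh, Psat1 and Psph, the mitochondrial folate enzyme gene Mthfd2, and Trib3, Chac1, Sesn2, Atf5 and Nupr1. They were chosen by gene symbol as known members of the pathway, with earlier results of these data known. All 10 were among the 34745 genes of the table, and all 10 were among the 13561 genes that reached a sum of 10 counts and were compared. RNA-seq was performed on the liver of male mice, 8 to 10 weeks old, at day 3 after 2/3 partial hepatectomy (2/3 PH), in which 70% of the liver is removed. The experiment group was labelled miRNA-182 KO and the control group WT, and both groups had the same surgery. The KO mice were heterozygous, with a single deleted allele in every cell type, so they model a partial loss of miR-182-5p and not its absence. Each genotype had 1 library, and neither the number of mice behind a library nor the strain is given in the sources used here. The microRNA gene itself was not analysed here, and no check of the genotype labels was made. The comparison asks how mRNAs of the ATF4 pathway differed between the miR-182-5p KO and WT liver while the liver was regrowing. With 1 library per genotype there is no replicate error, and no difference between the genotypes could be tested.

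ATF4 is made when phosphorylation of the initiation factor eIF2α slows general translation and favours the open reading frame of the Atf4 mRNA. The eIF2α kinases respond to amino acid shortage, unfolded proteins in the endoplasmic reticulum (ER), haem shortage or double-stranded RNA. ATF4 pairs with C/EBP and other basic leucine zipper (bZIP) proteins on a composite element, the C/EBP-ATF response element (CARE), and switches on genes for amino acid synthesis, uptake and tRNA charging. The liver is a main site of amino acid metabolism, and much of its serine comes from the diet and from other organs, so the serine synthesis enzymes are known for low expression in adult liver.

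The CARE core was searched as TGATGNAA on both strands of the RefSeq promoters (GRCm38.p6), from 250 bases before to 50 bases after each start. All 10 genes had an entry, with 12 promoters because Psat1 and Atf5 had 2 each. A match was present in 4 of the 12 promoters, those of Asns, Trib3, Chac1 and Nupr1, against 3.97% of all 32851 promoters and 2.39% of the 12732 promoters of compared genes. Because the genes were chosen as known ATF4 targets, this count is a description of the list. The Asns promoter is printed whole because Asns had the largest difference of the 10 genes, and the other matches are shown in 30 bases each. Capitals mark the match, read 5′ to 3′ on the strand of the gene.
Asns promoter, chr6:7693160-7693459, minus strand: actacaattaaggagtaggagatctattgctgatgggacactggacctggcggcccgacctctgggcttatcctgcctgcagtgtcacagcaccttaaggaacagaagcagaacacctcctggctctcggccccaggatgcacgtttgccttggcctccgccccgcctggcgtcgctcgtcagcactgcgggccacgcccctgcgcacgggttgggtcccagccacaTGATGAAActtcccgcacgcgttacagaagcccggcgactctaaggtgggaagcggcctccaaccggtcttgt
Trib3, chr2:152344028-152344057, minus strand: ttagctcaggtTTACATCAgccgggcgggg
Chac1, chr2:119351038-119351067, plus strand: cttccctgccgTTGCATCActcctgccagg
Nupr1, chr7:126625562-126625591, minus strand: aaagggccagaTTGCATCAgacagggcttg
The Asns match reads TGATGAAA in the direction of the gene and begins at position -23, counted from the annotated start as position 1 with no position 0. The other matches read as the reverse complement and begin at position -193 in Chac1, -110 in Nupr1 and 15 in Trib3. All these positions follow the RefSeq starts, and the gene spans given below begin elsewhere. The Asns and Nupr1 matches lie inside those spans, and the Chac1 and Trib3 matches lie outside them. No match in the other promoters says only that these letters are not in those windows.

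The longest annotated 3′ untranslated region (UTR) of each gene was also searched for the 8-base site of miR-182-5p, TTGCCAAA. It was found in Sesn2 alone of the 10 genes, and 5.50% of 12541 compared genes with such a region held it. The mature microRNA is printed with its seed in capitals, and the Sesn2 window with the site in capitals.
miR-182-5p, chr6:30165962-30165986, minus strand: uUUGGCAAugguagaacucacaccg
Sesn2 3′ UTR, chr4:132492809-132492838, minus strand: gccaagaatgcTTGCCAAAaacaaacaaac
The site starts at base 889 of the 1684 bases of this region. It is a match of letters, and binding was not measured.

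The libraries were of nearly equal depth, with 13247497 counts for KO and 13163348 for WT. The composition differed, with 51.7% of KO counts and 31.0% of WT counts on genes of the mitochondrial genome. Fold changes are therefore given after TMM scaling, which set the median log2 fold change of all compared genes at 0.00. Scaling by total counts moved log2 fold changes by -0.60, less for genes with few counts, and values are read relative to that shift. Levels are given as the authors' FPKM, counts scaled to gene length and total count, which are used to compare one gene with another, and their intervals follow the total-count scale. Log2 fold changes are KO over WT, and their 95% intervals are exact binomial intervals that cover counting error only. A gene was called higher or lower when it differed by 2-fold or more, with no test. By this rule 9.46% of all compared genes were higher in KO and 9.94% were lower.

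The 10 ATF4 targets did not move as one group. Asns, Phgdh and Nupr1 were called higher in the KO library, Psph was called lower, and Trib3, Chac1, Sesn2, Psat1, Mthfd2 and Atf5 were within 2-fold. The median log2 fold change was 0.24, with 6 genes above 0 and 4 below. After total-count scaling the median was -0.35, 1 gene was higher (background 4.60%) and 4 were lower (background 26.6%), namely Chac1, Psph, Mthfd2 and Atf5. Only the higher level of Asns and the lower level of Psph were called after both scalings. Counts set the precision, since 6 of the 10 genes had fewer than 100 counts over both libraries and the sums ran from 15 for Chac1 to 3872 for Atf5. The interval left out 0 for 5 genes, Asns, Psph, Atf5, Sesn2 and Nupr1, and held 0 for the other five.

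**Figure D1:**
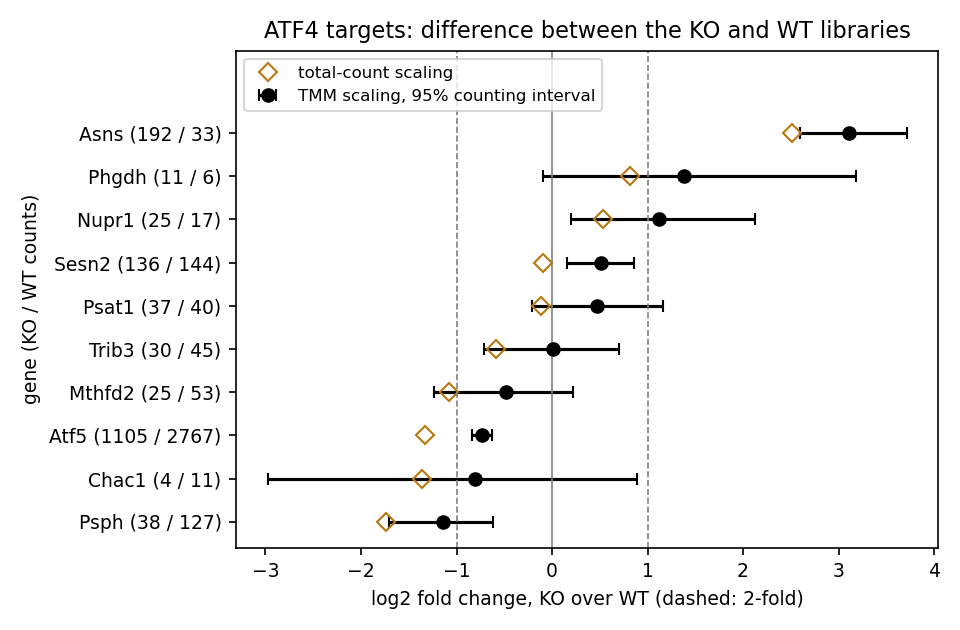
Log2 fold change (KO over WT) of each ATF4 target on the x axis, with KO and WT counts beside each name. Black points with bars are TMM-scaled values with 95% counting intervals, open diamonds are values after total-count scaling, and dashed lines mark 2-fold. Asns stands at 3.11 and Psph at -1.14, at the 2 ends of the list.

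Asns encodes asparagine synthetase, which makes asparagine from aspartate and glutamine. Its counts were 192 in KO and 33 in WT, and its level was 3.86 FPKM in KO and 0.668 FPKM in WT. The KO library was the high one, and the counting intervals of the levels, 3.34 to 4.45 and 0.460 to 0.939 FPKM, did not overlap. The fold change was 8.63-fold (log2 3.11, interval 2.59 to 3.71), and the log2 value was 2.51 after total-count scaling. Of the 2815 compared genes with a similar sum of counts (within 1.5 times), 13.3% were past 2-fold and 99.4% had a lower log2 fold change than Asns. Its interval lay apart from those of 8 of the 9 other targets and overlapped that of Phgdh. Asns was also the single target still called by edgeR's exact test under an assumed biological coefficient of variation of 0.2, by which 3.60% of all compared genes were higher and 3.27% lower. Under an assumed coefficient of 0.4 none of the 10 genes was called, with 0.435% of all compared genes higher and 0.428% lower. The gene lies at chr6:7675169-7693254 (GRCm38, minus strand). The asparaginase gene Aspg was higher as well, at 6322 and 4312 counts (log2 1.14, or 0.54 after total-count scaling). Asrgl1, an asparaginase-like gene, stood on the other side of 0, at 93 and 179 counts. Its log2 fold change was -0.35 (interval -0.73 to 0.02, which held 0), or -0.95 after total-count scaling. Of the 13 asparagine, aspartate and glutamate genes compared, Aspg and Asrgl1 included, 4 were above 0 and 9 below.

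**Figure D2:**
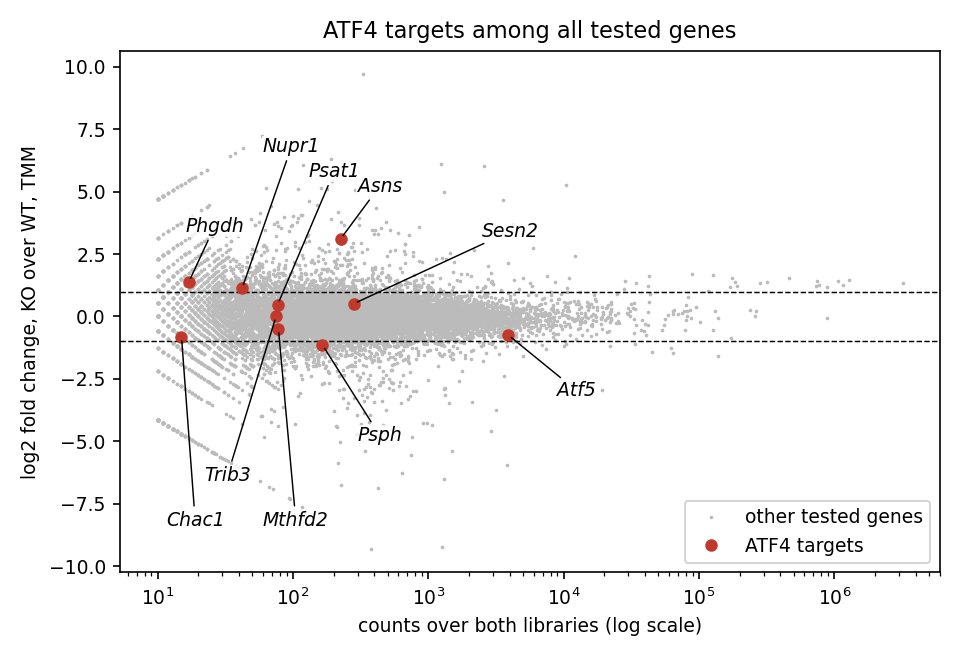
Log2 fold change (KO over WT, TMM) against the sum of counts over both libraries (log scale) for the 13561 compared genes in grey and the 10 ATF4 targets in red. Dashed lines mark 2-fold, the spread of the grey points widens at low counts, and Asns stands above the mass of genes with like counts.

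Of the serine synthesis enzymes, Psph was lower in KO by more than counting error, and the intervals of Phgdh and Psat1 held 0. Phgdh encodes the dehydrogenase of the first step from 3-phosphoglycerate, Psat1 the aminotransferase of the next step, and Psph the phosphatase that releases serine. Psph had 38 counts in KO and 127 in WT, at levels of 0.446 and 1.5 FPKM. The KO library was the low one, with level intervals of 0.316 to 0.613 and 1.25 to 1.79 FPKM that did not overlap. Its log2 fold change was -1.14 (interval -1.71 to -0.62) and -1.74 after total-count scaling. Psat1 had 37 and 40 counts, at levels of 0.401 and 0.437 FPKM, with a log2 fold change of 0.47 (interval -0.21 to 1.16) that became -0.12 after total-count scaling. This Psat1 interval held both 0 and a 2-fold higher KO level, so a difference was not detectable at these counts. Phgdh had 11 counts in KO and 6 in WT, at levels of 0.290 and 0.159 FPKM. Its log2 fold change was 1.38, a value whose interval, -0.09 to 3.19, held 0. At such counts a 2-fold difference was common, since 50.6% of 1244 genes with a similar sum of counts were past it. The interval of Psph lay apart from those of Psat1 and Phgdh, so the last step of the pathway differed from the earlier steps by more than counting error.

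The counts of Phgdh and Psph may be shared with other genes. Of the 51-base words of the longest coding transcript of Phgdh, 62.5% also occur in annotated transcripts of other genes. Among these genes are Gm7901, Gm9347, Gm8341 and Gm7669, and the Phgdh values are uncertain for that reason. Psph shares 452 exon bases with Cct6a on the opposite strand, and whether strand was used in counting is not given in the sources used here. Cct6a had 523 counts in KO and 966 in WT (log2 -0.29), and its part in the Psph counts was not tested. Of Psat1, 1.13% of words were shared. Phgdh lies at chr3:98313170-98339990, Psat1 at chr19:15904678-15947337 and Psph at chr5:129765558-129787449, all on the minus strand.

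Mthfd2 (chr6:83305691-83325908, minus strand) encodes the mitochondrial enzyme that oxidises the folate-bound carbon unit split off from serine, and is known for expression in dividing cells. It had 25 counts in KO and 53 in WT, and 0.380 and 0.812 FPKM. The KO value was the lower one, with level intervals of 0.246 to 0.562 and 0.608 to 1.06 FPKM that did not overlap on the total-count scale, but after TMM scaling the log2 fold change of -0.49 had an interval of -1.24 to 0.22 that held 0. After total-count scaling it was -1.08. Of 8 markers of proliferating cells, 4 were called lower (Top2a, Ccnb1, Cdk1 and Plk1) and 4 were within 2-fold (Mki67, Ccna2, Birc5 and Bub1), beside 9.94% of all compared genes lower. All 8 were below 0, with a median of -0.95 and a summed level of 17.5 FPKM in KO and 48.2 in WT. The part of cell division in the Mthfd2 and Psph values was not tested. In bulk tissue, fewer cells of a type and less RNA per cell cannot be told apart.

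Atf5 (chr7:44812256-44816599, minus strand) encodes a bZIP factor that is itself induced by ATF4 and acts in the mitochondrial stress response. It was the most abundant of the 10 mRNAs and the best counted, with 1105 counts in KO and 2767 in WT. Its level was 26.1 FPKM in KO and 65.7 FPKM in WT, so the WT library was the high one and the level intervals, 24.6 to 27.7 and 63.3 to 68.2 FPKM, did not overlap. The log2 fold change was -0.73 (interval -0.83 to -0.63), within 2-fold, and -1.33 after total-count scaling, past it. Among compared genes with a similar sum of counts, 7.34% were past 2-fold and 8.86% had a lower log2 fold change. Atf5 shares 82 exon bases with genes on the opposite strand, Nup62 and Il4i1, of which Il4i1 had 139 and 155 counts (log2 0.43). The counts of Nup62 are not given here, and the part of either gene in the Atf5 counts was not tested.

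Nupr1 (chr7:126623249-126630861, minus strand) encodes a small stress-induced chromatin protein. It had 25 counts in KO and 17 in WT, and 0.370 and 0.253 FPKM, a log2 fold change of 1.12 (interval 0.20 to 2.13) that became 0.53 after total-count scaling. The KO value was the higher one after both scalings, and 35.3% of genes with a similar sum of counts were past 2-fold. Trib3 (chr2:152337422-152344032, minus strand), a pseudokinase that inhibits ATF4 and AKT, had 30 and 45 counts and 0.715 and 1.08 FPKM. Its log2 fold change was 0.01 after TMM scaling, with an interval of -0.71 to 0.71 that held 0 and left out 2-fold in either direction. The value was -0.59 after total-count scaling.

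Sesn2 and Chac1 act on amino acid sensing and glutathione. Sesn2 (chr4:132492032-132510501, minus strand) encodes a leucine sensor that restrains mTORC1, and it was the one target with the miR-182-5p site printed above. It had 136 counts in KO and 144 in WT, and 2.95 and 3.15 FPKM. The log2 fold change was 0.51 (interval 0.16 to 0.86), within 2-fold, and it crossed 0 to -0.09 after total-count scaling. Chac1 (chr2:119351229-119354381, plus strand) encodes an enzyme that breaks down glutathione. It had 4 counts in KO and 11 in WT, and 0.184 and 0.511 FPKM. A log2 fold change of -0.81 had an interval of -2.97 to 0.89, the widest of the 10, which held both 0 and a 2-fold lower level, so a difference was not detectable at this depth.

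In level, Atf5 stood far above the other targets. It made up 73.1% of the summed FPKM of the 10 genes in KO (35.7) and 88.5% in WT (74.3). Without Atf5 the sums were 9.61 FPKM in KO and 8.57 FPKM in WT, of which Asns was 3.86 and 0.668 FPKM. Phgdh and Nupr1 also had the higher FPKM in KO, and the remaining targets had the lower. Most of the other targets were low, with 7 genes below 1 FPKM in KO and 6 in WT. In WT the order from high to low was Atf5, Sesn2, Psph, Trib3, Mthfd2, Asns, Chac1, Psat1, Nupr1 and Phgdh. In KO it was Atf5, Asns, Sesn2, Trib3, Psph, Psat1, Mthfd2, Nupr1, Phgdh and Chac1. Asns thus stood 6th in WT and 2nd in KO, at the 27.2 and 75.0 percentile of the FPKM of compared genes. Neighbours had counting intervals apart only between Atf5 and Sesn2 and between Sesn2 and Psph in WT, and between Atf5 and Asns and between Sesn2 and Trib3 in KO. The gene lengths behind the authors' FPKM exceeded the longest coding transcript of several genes (5098 against 829 bases for Nupr1). Per kilobase of that transcript, a length chosen after seeing the data, the order changed. In WT Psph (5.57) then stood above Sesn2 (3.15), Nupr1 was 6th and Asns 7th, and in KO Asns remained 2nd and Nupr1 was 4th. On that length 3 genes in KO and 2 in WT were below 1.

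**Figure D3:**
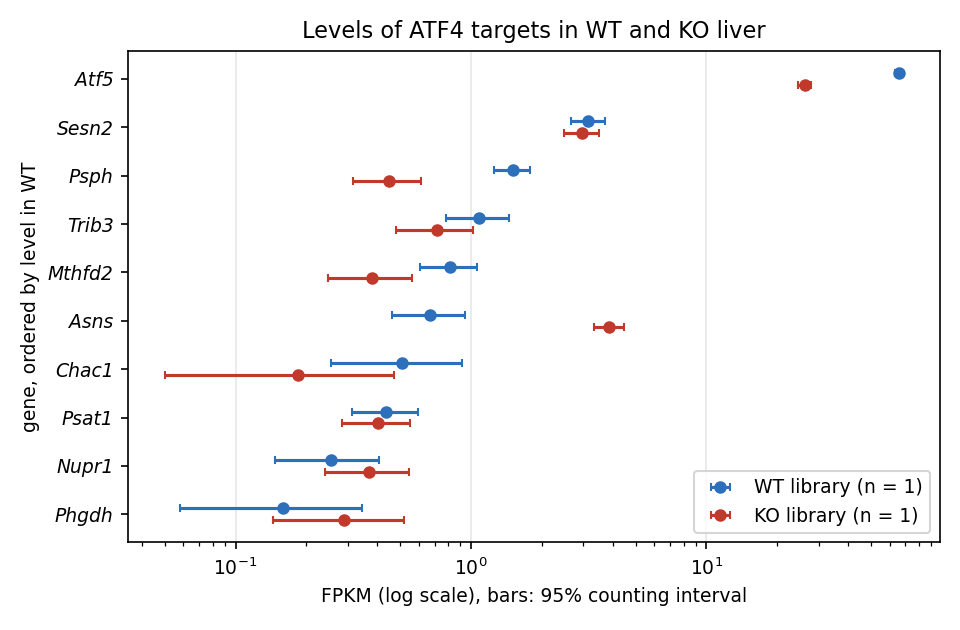
FPKM of each ATF4 target (log scale) in the KO and WT libraries, with bars for the 95% counting interval. Atf5 is the highest gene in both libraries, and the KO and WT intervals of Asns, Psph, Mthfd2 and Atf5 do not overlap on this total-count scale.

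Upstream of ATF4, 17 of 18 listed genes were matched and compared. Of these genes for eIF2α kinases, their regulators, eIF2 and eIF2B subunits and eIF2α phosphatase subunits, 1 was higher and 0 were lower, beside 19.4% of all compared genes called in either direction, with a median log2 fold change of 0.15 (-0.45 after total-count scaling). The kinase genes Eif2ak1, Eif2ak3 and Eif2ak4, for the haem, ER and amino acid sensors, had log2 fold changes of 0.07, 0.47 and 0.46. Eif2ak2, the double-stranded RNA sensor PKR, had 284 counts in KO and 191 in WT and was the gene called higher, at 1.16 (0.56 after total-count scaling). Gcn1l1 and Impact, an activator and an inhibitor of the amino acid sensor, stood at 0.60 and 0.09. Oma1, the mitochondrial protease that signals stress to the cytosol, stood at 0.57, and the kinase inhibitor gene Dnajc3 at 0.08. Eif2s1, which encodes eIF2α itself, had 130 and 365 counts and the lowest value, -0.90, which passed 2-fold at -1.49 after total-count scaling, and Eif2s2 stood at 0.15. The eIF2B subunit genes Eif2b1 to Eif2b5 stood at 0.15, 0.27, -0.27, -0.01 and -0.26. Ppp1r15a, the stress-induced phosphatase subunit GADD34, had 200 and 164 counts and a value of 0.88, and Ppp1r15b stood at 0.16. Phosphorylation and translation were not measured.

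Atf4 itself had 1341 counts in KO and 1498 in WT, at levels of 58.7 and 66.0 FPKM. Its log2 fold change was 0.43 (interval 0.33 to 0.54), and it was -0.17 after total-count scaling. The Atf4 libraries were thus within 2-fold after both scalings. Of the 11 bZIP genes compared, Atf4 included, 1 was higher and 2 were lower, or 27.3% called, beside 19.4% of all compared genes. Their median was -0.15 (-0.75 after total-count scaling). After total-count scaling 0 were higher and 3 were lower, beside 4.60% and 26.6% of all compared genes. Ddit3, which encodes the stress factor CHOP, had 368 and 206 counts and was higher at 1.43 (0.83 after total-count scaling). Cebpg, a heterodimer partner of ATF4, had 33 and 325 counts and was lower at -2.69 (interval -3.27 to -2.19). Atf3, a stress-induced repressor, had 50 and 172 counts and was lower at -1.18. Cebpb, Cebpa and Cebpd stood at -0.15, 0.44 and -0.47, Nfe2l2 (the antioxidant factor NRF2) at -0.18, Creb3l3 at 0.35, Jdp2 at 0.26 and Atf2 at -0.24. Batf had 0 and 2 counts and was not compared.

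Other ATF4 targets lay on both sides of 0. Of 30 compared from a list of 34, 13 were above 0 and 17 below, with a median of -0.20 (-0.80 after total-count scaling). The called genes were 2 higher and 6 lower, or 26.7%, beside 19.4% of all compared genes. After total-count scaling 1 was higher and 12 were lower, beside 4.60% and 26.6% of all compared genes. Map1lc3b, an autophagy gene, was higher at 1.22, with 475 and 307 counts. Cdkn1a, the cell cycle inhibitor p21, was lower at -1.54 (228 and 1002 counts), Ddit4, an mTORC1 inhibitor, at -1.99 (39 and 235 counts), and Tnfrsf10b, a death receptor, at -1.05 (28 and 88 counts). Slc7a11, the cystine transporter gene, was the other gene called higher, at 14 and 1 counts (log2 3.76, interval 1.68 to 9.80), and Slc1a4, an amino acid transporter gene with 35 and 215 counts, the ER oxidase gene Ero1l with 19 and 106 and the folate enzyme gene Mthfd1l with 2 and 31 (log2 -3.13, interval -6.47 to -1.39) were the others called lower. These 4 genes were named after their values were seen. Shmt2, the mitochondrial serine hydroxymethyltransferase and the most abundant gene of the list, had 1929 and 2574 counts and stood at 0.18. Of 20 cytosolic aminoacyl-tRNA synthetase genes, 0 were higher and Sars, for seryl-tRNA synthetase, was lower at -1.05 (230 and 721 counts), while Nars, for the asparaginyl enzyme, stood at -0.09. The median of the synthetases was -0.12 (-0.72 after total-count scaling), and 5% of them were called, beside 19.4% of all compared genes. After total-count scaling 0 were higher and 4 were lower, beside 4.60% and 26.6% of all compared genes.

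In the wider amino acid pathways the called genes were few, as among all compared genes, of which 80.6% were within 2-fold. In serine, glycine and folate metabolism, 2 of 28 genes were higher and 1 was lower, with a median of -0.20 (-0.80 after total-count scaling). After that scaling 0 were higher and 11 lower, beside 4.60% and 26.6% of all compared genes. Sds, the serine dehydratase that breaks serine down, was abundant at 3957 and 4324 counts and stood at 0.46. Fpgs, which adds glutamates to folate, was higher at 1.30 (1865 and 1142 counts), and Gnmt, glycine N-methyltransferase, was lower at -1.03 (1044 and 3216 counts). Among 13 asparagine, aspartate and glutamate genes, 1 was higher (Aspg) and 1 was lower, and the urea cycle gene Ass1 stood at -0.51. Their median was -0.11 (-0.71 after total-count scaling). Of 10 glutathione genes compared, Ggt5 alone was called, lower at -1.41 with 7 and 29 counts, Gclc stood at -0.25 and the median was -0.23 (-0.83 after total-count scaling).

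Genes of the other ER stress arms, ATF6 and XBP1, sensors included, were mostly above 0 after TMM scaling. Of 18 genes, 4 were higher, 0 were lower and 15 were above 0, beside 9.46% of all compared genes higher and 9.94% lower. The median was 0.55 and became -0.05 after total-count scaling, still 0.55 above the median of all compared genes there. After total-count scaling 1 was higher and 2 were lower, beside 4.60% and 26.6% of all compared genes. The ER chaperone gene Hspa5 was higher at 1.48 (2783 and 1508 counts), Creld2 at 1.46 (1052 and 575 counts), Sel1l, of ER-associated degradation, at 2.22 (116 and 37 counts) and the chaperone gene Hyou1 at 1.33 (109 and 65 counts). Calr, a lectin chaperone and the most abundant of them, stood at 0.27. Of these 4 genes, Sel1l was past 2-fold after total-count scaling. Among 11 mitochondrial stress chaperone and protease genes, Atf5 included, 0 were higher and Clpx was lower at -1.01 (438 and 1328 counts). That was 9.09% called, beside 19.4% of all compared genes. Their median was -0.49 (-1.09 after total-count scaling, then 6 lower, beside 26.6% of all compared genes). Of 20 genes of mTORC1 amino acid sensing, 0 were higher and 3 were lower, Ddit4, Seh1l at -1.01 and Akt1s1 at -1.48. That was 15% called, beside 19.4% of all compared genes. Sec13 stood at -0.43, and the median was -0.01 (-0.61 after total-count scaling, then 6 lower). Over all these lists and the list of relatives given below, the 10 targets left out, 179 genes were compared. Of these, 12 were higher and 15 lower, beside 9.46% and 9.94% of all compared genes. After total-count scaling 3 were higher and 51 lower, beside 4.60% and 26.6% of all compared genes.

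**Figure D4:**
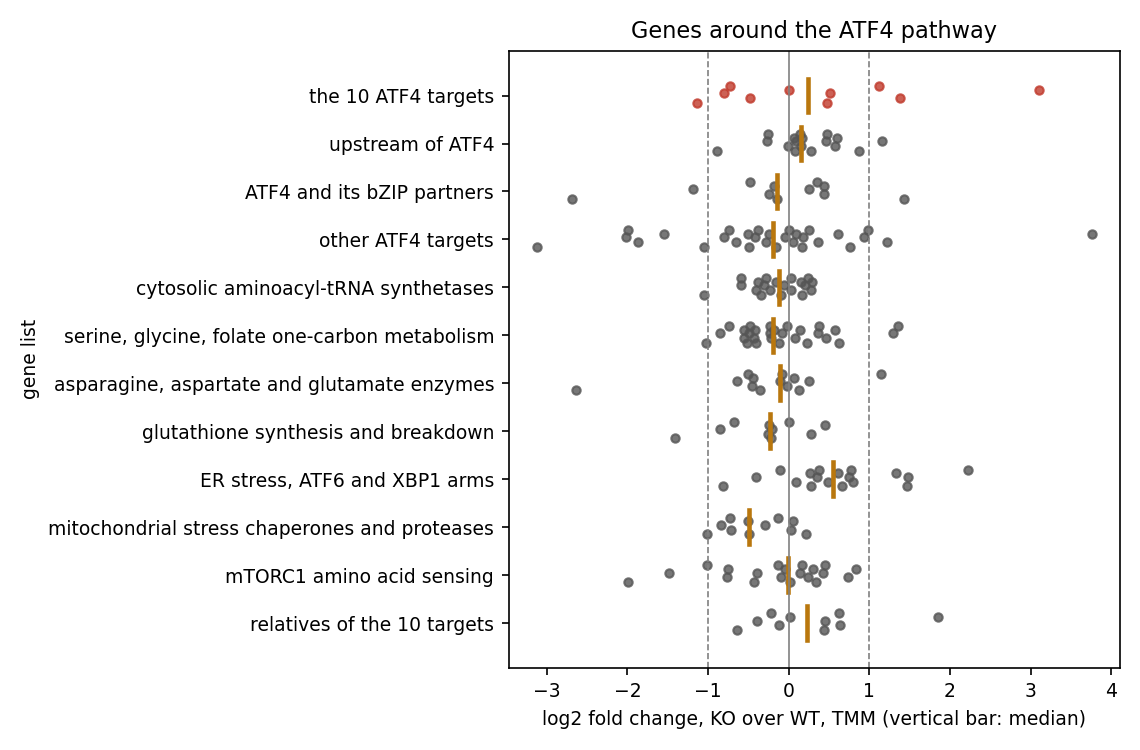
Log2 fold change (KO over WT, TMM) of each compared gene of each list, with a mark for the list's median. The ER stress list has its median at 0.55, the mitochondrial stress list at -0.49, and every list has genes on both sides of 0.

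Of 10 close relatives of these genes, 1 was higher, 0 were lower and 9 were within 2-fold, beside 80.6% of all compared genes, with a median of 0.22 (-0.37 after total-count scaling). Nupr1l, the relative of Nupr1, had 13 and 5 counts and was higher at 1.85 (interval 0.39 to 3.81, and 1.29 after total-count scaling). The others were Trib1 at 0.63, Trib2 at -0.12, Sesn1 at 0.02, Sesn3 at -0.40, Chac2 at 0.45, Mthfd2l at 0.63, Mthfd1 at -0.22, Asnsd1 at -0.64 and Atf4, the relative of Atf5, at 0.43. Chac2 had 333 and 368 counts, far more than Chac1. Asnsd1, an asparagine synthetase domain gene, had 121 and 285 counts, the opposite direction to Asns after both scalings.

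Hepatocyte markers were abundant in both libraries, as the liver label requires. All 8 hepatocyte markers were compared, with a median of -0.01, 0 higher, 1 lower (Apob, with 1517 and 17808 counts) and summed levels of 21433 FPKM in KO and 30983 FPKM in WT. Values of stellate, Kupffer and endothelial cell markers lay mostly below 0, in 7, 8 and 7 of the 8 genes of each list. The 8 stellate cell markers summed to 25.2 and 56.3 FPKM, with 0 higher and 2 lower (Col1a1 and Acta2). The 8 Kupffer cell markers summed to 43.1 and 89.4 FPKM, with 0 higher and 2 lower (Adgre1 and Marco), and the 8 endothelial markers to 9.87 and 20.3 FPKM, with 0 higher and 1 lower (Lyve1). Of 5 cholangiocyte markers compared, Krt19 (26 and 7 counts) and Krt7 (15 and 6 counts) were higher and 0 lower. The cholangiocyte list summed to 25.7 and 29.7 FPKM, of which Spp1 was 23.0 and 26.5. Of 4 neutrophil markers none was past 2-fold (35.2 and 47.8 FPKM, with Ly6g at 0 in both). Of 3 lymphocyte markers Cd79a was higher, and of 5 erythroid markers Alas2 was higher and Hbb-bs lower. These marker genes were named after their values were seen. The calls are those after TMM scaling, by which 9.46% of all compared genes were higher and 9.94% lower. The summed FPKM follow the total-count scale. After total-count scaling 5 stellate, 3 Kupffer, 4 endothelial, 2 hepatocyte, 4 erythroid and 1 lymphocyte markers were lower. All 8 markers of proliferating cells were lower there too, beside 26.6% of all compared genes lower, and Alas2 was within 2-fold. The part of these cells in the values of the ATF4 targets was not tested.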

How the data were processed

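Liver RNA of 1 miR-182-5p KO and 1 WT library was analysed. The deposited table holds raw read counts per gene and the FPKM that the authors derived from these counts, scaled by total count. The submitters' processing notes name HISAT2 2.0.4, StringTie, edgeR and the human build hg38, which is not that of the mouse identifiers and coordinates in the table. Coordinates match GENCODE M21 (GRCm38) for 9 of the 10 genes. Atf5 differs in its higher coordinate, 44816599 against 44816658 in M21, which is the 5′ side of this minus-strand gene. The annotation and counting program are not given in the sources used here.

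Genes whose counts summed to 10 or more were compared. Library sizes were scaled by TMM in edgeR 4.0.16 (R 4.3.3), and log2 fold changes used a prior count of 0.5. Intervals are exact binomial intervals at 95%. Alternatives were other scalings (DESeq2 1.42.0 size factors among them), filters, prior counts, folds and assumed variation. The scripts were tested on simulated data. Python 3.11.15, pandas 2.3.3, numpy 2.4.6, scipy 1.17.1 and matplotlib 3.10.9 were used. Sequences are from RefSeq and GENCODE.

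The 10 genes and the lists were chosen with earlier results of these data known. The genes named are the 10, every gene matched from the upstream, bZIP and relatives' lists (1 upstream symbol was not matched and is not analysed here), and from each other list the most abundant gene and up to 4 abundant genes past 2-fold. Genes sharing sequence or exons with these genes, and Asrgl1, were named after their values were seen. Some genes of the lists are not reported by name here.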

Additional observations from a re-analysis of the deposited data

How the results depend on the processing

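No paired analysis was possible because there was 1 library per genotype, and for the same reason no replicate could be left out. The number of the 10 genes called higher, 3, became 1 with total-count scaling, with FPKM and a pseudocount of 0.1, with a prior count of 5, with a minimum of 50 counts (7 of the genes compared) and with edgeR's exact test at an assumed coefficient of variation of 0.2, and 0 at 0.4. The number called lower, 1, became 4 with total-count scaling, 3 with FPKM, 3 at 1.5-fold, and 0 at either assumed coefficient. Over the related lists, total-count scaling gave 3 higher and 51 lower in place of 12 and 15. After that scaling 4.60% of all compared genes were higher and 26.6% lower. The median of the 10 genes changed sign with total-count scaling (-0.35) and FPKM (-0.32), and was 0.02 to 0.25 under the other settings. With FPKM and total-count scaling the shift of the scaling sets the change. With a prior count of 5, Phgdh stood at 0.91 and Nupr1 at 0.93, within 2-fold. The minimum of 50 counts left out Chac1, Phgdh and Nupr1, whose sums were 15, 17 and 42. For the remaining settings the cause was not tested. Asns ranged from 2.37 to 3.12, Psph from -1.74 to -1.07 and Atf5 from -1.33 to -0.72, while Trib3, Sesn2 and Psat1 changed sign with the scaling. Of 77 values of single genes, 70 stayed within their counting interval and 7 did not. Levels per kilobase of the longest coding transcript, chosen after seeing the data, were 2.28 and 1.56 for Nupr1 and 7.19 and 1.24 for Asns (KO and WT). Without replicates, the spread between mice is unknown, and depth limits the genes under 100 counts.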
